A study of Mus musculus with 12 samples.

Results

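The 7 genes described here encode lipid-sensing G protein-coupled receptors that place B cells in tissues: S1pr1, S1pr2, S1pr3 and S1pr4, which bind sphingosine-1-phosphate (S1P), Gpr183 (EBI2), which binds oxysterols, Cnr2 (cannabinoid receptor CB2) and Ptger4 (the prostaglandin E2 receptor EP4). They were chosen by name and are 7 of the 56941 genes in the count table. Of these, 6 were among the 15148 genes that passed the filter on low counts, and S1pr3 did not pass. Bulk RNA sequencing was done on B cells sorted from the peritoneal cavity (PerC) of mice to see how a gain-of-function GPR34 receptor alters their transcripts. GPR34 is a receptor for lysophosphatidylserine. There were 12 libraries, 3 from each of 4 groups, since each genotype (control or KI) gave both B2 and MemB cells. B2 cells were sorted as IgD+IgM+ and memory B cells (MemB) as IgD-IgM-. KI mice carried Cd21-Cre and a conditional allele at the Rosa26 locus, R26 LSL-Gpr34Q340X-IRES-GFP, which encodes a truncated receptor (Q340X) and a GFP reporter after Cre has removed a stop cassette. Controls were littermates, and the alleles they carried are not given in the sources used here. Mice of the study were 8 to 20 weeks old, received no treatment before these sorts as far as the labels say, and were of both sexes. Cd21-Cre recombines the allele in mature B cells. Follicular dendritic cells, which were not sorted here, have its activity too. The sorts were not gated on GFP as far as the sources say, so KI libraries may hold cells in which the allele was not recombined.

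Each of these receptors reads a lipid whose concentration differs between compartments. S1P is high in blood and lymph and low in tissue, and S1PR1 draws lymphocytes toward it, out of lymphoid organs. S1PR2 couples to G12/13 proteins and holds cells back from S1P, for example in germinal centers. GPR183 guides activated B cells along oxysterol gradients to the edges of follicles. CB2 retains immature and marginal zone B cells in their niches, and EP4 raises cyclic AMP in lymphocytes in response to prostaglandin E2.

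Library totals lay between 29895068 and 39732124 expected counts, with 17301 to 18656 genes detected. Levels are given as CPM, counts scaled to a common library size after TMM normalization. Ribosomal RNA genes took 29.3% to 38.3% of the counts. Gpr34, which checks the genotype labels, was at 4.92 ± 1.77 CPM in B2 of control mice and 105 ± 6.70 in B2 of KI mice, and at 23.0 ± 6.79 in control and 152 ± 18.2 in KI MemB (SD, n = 3 each). Among B cell markers, Ms4a1 (CD20) was at 622 to 932 CPM and Cd79a, a chain of the antigen receptor complex, at 403 to 659 CPM in the 12 libraries. Among B2 markers, Ighm, whose protein was used in the sort, was at 2014 to 2688 CPM in control and 297 to 566 in KI MemB, while Fcer2a and Cr2 lay above control MemB in KI MemB, at 76.7 to 151 CPM against 26.9 to 69.8 and at 56.2 to 97.5 against 38.1 to 50.4. The 6 B-1 markers summed to 647 to 746 CPM in control MemB and 515 to 616 in KI MemB, against 148 to 247 in B2. The libraries with replicate number 3 stood apart in every group by Xist, with 2417 to 3236 CPM against at most 66.6 in the other 8 libraries.

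To compare the receptors with each other, CPM were divided by the exon length of each gene in kilobases. Gpr183 had the highest mean level over the 12 libraries, at 49.2 ± 11.2 CPM per kb, followed by S1pr1 at 37.4 ± 10.7 and S1pr4 at 23.3 ± 11.98 (SD, n = 12). Cnr2 was at 9.70 ± 5.76 CPM per kb, Ptger4 at 2.52 ± 1.42 and S1pr2 at 0.104 ± 0.212. S1pr3 had 0 counts in all 12 libraries.

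In control B2 and KI B2, Gpr183 and S1pr1 overlapped, both lay above S1pr4 in every library, and Ptger4 lay below Cnr2 in every library. In control MemB, S1pr1 at 40.5 ± 11.2 CPM per kb, Gpr183 at 39.3 ± 0.245 and S1pr4 at 27.3 ± 17.0 overlapped, as did Cnr2 at 5.54 ± 1.99 and Ptger4 at 3.795 ± 1.61 (SD, n = 3). With the longest transcript as length, Ptger4 was at 9.95, 5.47 and 4.67 CPM per kb in control MemB and Cnr2 at 6.72, 7.43 and 3.47. The order of their means there thus depended on the length used. In KI MemB, Gpr183 stood alone at the top with 59.4 ± 11.04 CPM per kb, while S1pr1 was at 23.8 ± 4.71 and overlapped S1pr4 at 25.2 ± 16.1 (SD, n = 3). The ratio of Gpr183 to S1pr1 on this scale ran from 1.61 to 3.24 in the 3 KI MemB libraries and from 0.812 to 1.42 in the 3 control MemB libraries. The ratio of Gpr183 to Cnr2 was 2.36 to 4.95 in B2 libraries and 5.60 to 23.0 in MemB libraries, with no overlap. Ratios of this kind are a description and were not tested.

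**Figure D1:**
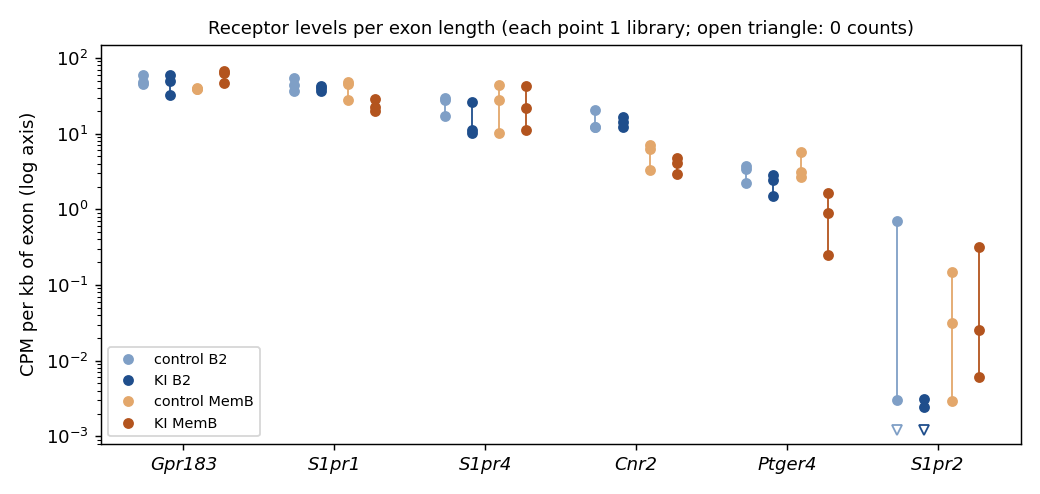
Levels of 6 receptors in CPM per kilobase of exon (log axis), by group. Each filled point is 1 library, lines join the lowest and highest library above 0, and open triangles mark libraries with 0 counts. Gpr183, S1pr1 and S1pr4 lie above 10 CPM per kb in every library, and S1pr2 lies below 1 in every library.

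Calls rested on edgeR's quasi-likelihood test with p adjusted over all 15148 genes, and needed an adjusted p under 0.05 together with more than a doubling or halving (log2 fold change beyond 1 in size). In KI against control MemB, 0 of the 6 members tested were called, where 0.284% of all genes were. At an unadjusted p below 0.05 there were 3 members, Ptger4, S1pr1 and Gpr183, against 11.1% of all genes, and DESeq2 called 1 member, Ptger4, against 3.49% of all genes. The libraries of the groups did not overlap for 2 members, Ptger4 and Gpr183, against 12.1% of all genes. In KI against control B2, 0 members were called (0.0066% of all genes), DESeq2 called 0 (0.289%), 1, S1pr2, had an unadjusted p below 0.05 (5.74%) and 0 had libraries that did not overlap (10.2%). The effect of the KI allele differed between MemB and B2 for 0 members (0.066% of all genes), by DESeq2 also for 0 (1.52%), with 1 member, S1pr2, at an unadjusted p below 0.05 (8.49%).

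In MemB against B2 over both genotypes, 1 member was called, Cnr2, against 1.01% of all genes. Cnr2 was also the 1 member that DESeq2 called (4.09% of all genes) and the 1 member whose libraries did not overlap (1.26%), and it was 1 of 2 members at an unadjusted p below 0.05 (12.9%), with S1pr1. Within control mice, 0 members were called by edgeR (0.264% of all genes) and 1, Cnr2, by DESeq2 (2.9%), with Cnr2 at an unadjusted p below 0.05 as 1 of 6 (10.6%) and 2, Cnr2 and Gpr183, whose libraries did not overlap (12.3%). Within KI mice, 0 members were called by edgeR (0.363%) and 1, again Cnr2, by DESeq2 (2.88%), with 3, Cnr2, S1pr1 and S1pr2, at an unadjusted p below 0.05 (10.6%) and the same 3 with libraries that did not overlap (14.8%). For S1pr2, the lack of overlap within KI mice rested on 2 counts in KI MemB replicate 2 against at most 1 in KI B2. With 3 libraries a group, a common biological coefficient of variation of 91.4% and these shares, the counts over members say little beyond Cnr2.

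**Figure D2:**
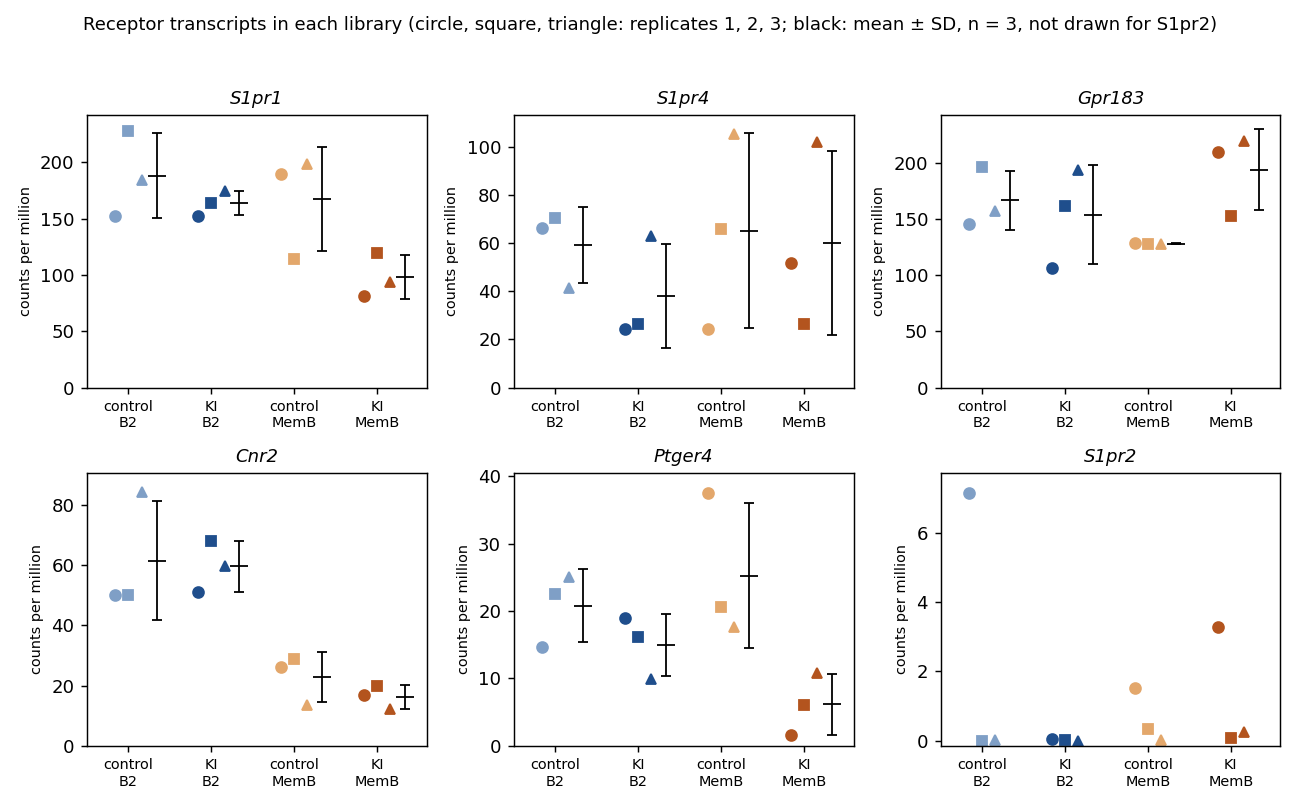
CPM of 6 receptors in each of the 12 libraries, by group, with replicate numbers as symbols and the mean ± SD in black (n = 3, not drawn for S1pr2). All 6 MemB libraries lie below all 6 B2 libraries for Cnr2, and the 3 KI MemB libraries lie below the 3 control MemB libraries for Ptger4 and above them for Gpr183.

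S1pr1 (chr3:115504071-115508721, minus strand, GRCm39), the S1P receptor that moves lymphocytes out of tissue, was at 153, 228 and 184 CPM in control B2 and at 153, 164 and 175 in KI B2. It was at 189, 115 and 199 CPM in control MemB and at 81.8, 119.9 and 93.9 in KI MemB. The 3 KI MemB libraries lay below all 6 B2 libraries, and the highest of them lay just above the lowest control MemB library. In KI MemB, S1pr1 was at 58.8% of its control level. This log2 fold change of -0.77 (SE 0.27) did not pass the test (edgeR adjusted p = 0.325). Within KI mice, the log2 fold change of MemB against B2 was -0.73 (SE 0.27, edgeR adjusted p = 0.349), against -0.17 (SE 0.27) within control mice. The difference of the KI effect between MemB and B2 was -0.57 (SE 0.38, edgeR adjusted p = 0.761). Its exons overlap those of Gm9889 on the other strand, which had at most 17.9 CPM in any library.

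Klf2 is the transcription factor best known for driving S1pr1, through a KLF site near its start. For that reason the 250 bases before the start shared by 2 of its 4 annotated transcripts (chr3:115508722-115508971, minus strand, GRCm39) are shown, read from the genome sequence and the GENCODE M39 annotation.
S1pr1: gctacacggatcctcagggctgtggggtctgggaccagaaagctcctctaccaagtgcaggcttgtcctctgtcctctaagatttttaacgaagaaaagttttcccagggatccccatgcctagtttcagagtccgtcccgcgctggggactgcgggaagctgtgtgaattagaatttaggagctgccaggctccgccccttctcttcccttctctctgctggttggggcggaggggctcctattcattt
The letters CACCC (the KLF core), ATTTGCAT (the octamer bound by OCT factors) and GAGGAA (the PU.1 core) were searched on both strands, and capitals mark a match. None of the 3 is in this window, so it has no capitals. Only these exact letters were searched, so the absence does not tell whether a KLF site of another form is there. Over the same 250 bases before the starts of 21770 protein-coding genes, 51.3% hold the KLF core, 1.52% the octamer and 22.9% the PU.1 core.

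S1pr4 (chr10:81333581-81335966, minus strand), an S1P receptor of blood cells, varied widely between libraries of 1 group. It was at 66.5, 70.3 and 41.3 CPM in control B2 and at 24.5, 26.4 and 63.0 in KI B2. For MemB the values were 24.2, 66.1 and 105 in control mice and 51.9, 26.5 and 102 in KI mice. All 4 groups overlapped. Its log2 fold change was -0.12 (SE 0.51, 95% interval -1.16 to 0.92) for KI against control MemB, -0.65 (SE 0.51) for KI against control B2 and 0.40 (SE 0.36) for MemB against B2 over both genotypes, with edgeR adjusted p of 0.971, 0.964 and 0.712. The first of these intervals reaches beyond a log2 fold change of -1.

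S1pr2 (chr9:20873657-20914139, minus strand), the S1P receptor that confines cells, was present in single libraries. Its deposited counts were 213, 0 and 1 in B2 of control mice and 1, 1 and 0 in B2 of KI mice. In MemB they were 53, 11 and 1 in control mice and 96, 2 and 8 in KI mice. The highest library of each of 3 groups was replicate 1, and 6 of the 12 libraries had 1 count or 0. The gene passed the filter through these few libraries, and its unadjusted p for KI against control B2 rested on the 213 counts of 1 library. No fold change, unadjusted p or lack of overlap is read from S1pr2 in any comparison. Its exons overlap those of Mrpl4 on the other strand, which had 143 to 1594 counts. S1pr3 (chr13:51561702-51576833, plus strand), an S1P receptor of marginal zone B cells and vessels, had 0 counts in every library. A count of 0 allows up to 3 counts, which is 0.0734 to 0.102 CPM at these depths, for counting error only.

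Over the S1P receptors, S1pr1 made up 64.5% ± 7.83 of the summed level per kb in control B2 and 72.7% ± 9.64 in KI B2. In MemB its share was 61.3% ± 17.7 in control mice and 51.4% ± 19.2 in KI mice (SD, n = 3), and the groups overlapped. S1pr4 made up nearly all of the rest.

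Of 17 genes of S1P synthesis, breakdown and transport, 13 were tested, and 0 were called in any of the 6 comparisons by edgeR, with 2 to 5 at an unadjusted p below 0.05 in each, against 5.74% to 12.9% of all genes. In KI against control MemB, DESeq2 called 1, Acer3, an alkaline ceramidase, with 9.12 to 33.2 CPM in KI MemB against 0.1499 to 4.04 in control MemB (DESeq2 adjusted p = 0.0338, edgeR adjusted p = 0.325). The list's median log2 fold change there was -0.32, beside -0.03 over all genes. Sgpl1, the lyase that degrades S1P, was at 19.98 to 39.3 CPM in B2 and 25.4 to 136 in MemB, a log2 fold change of 0.97 (SE 0.35, edgeR adjusted p = 0.196) over both genotypes. Spns2, an S1P exporter, was at 15.4 to 22.4 CPM in KI B2 and 0.307 to 2.60 in KI MemB (log2 fold change -3.96, SE 1.32, edgeR adjusted p = 0.254, DESeq2 adjusted p = 0.0123). In control mice it was at 1.69 to 10.1 CPM in B2 and 0.398 to 10.8 in MemB, which overlapped.

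Gpr183 (chr14:122189592-122202610, minus strand) lies inside the span of Ubac2 on the other strand and shares no exon with it. It was at 146, 196 and 157 CPM in control B2 and at 106, 161 and 194 in KI B2. In MemB it was at 129, 128 and 127 CPM in control mice and at 209, 153 and 219 in KI mice. The 3 control MemB libraries lay close together, and all 3 KI MemB libraries lay above them. The log2 fold change of KI against control MemB was 0.60 (SE 0.27, 95% interval 0.05 to 1.14), which did not pass the test (edgeR adjusted p = 0.394, DESeq2 adjusted p = 0.281). In B2 the same contrast gave -0.11 (SE 0.27), and the difference between these effects was 0.71 (SE 0.38, edgeR adjusted p = 0.643). MemB against B2 gave -0.38 (SE 0.27, edgeR adjusted p = 0.672) in control mice, with all 3 MemB libraries below the B2 libraries, and 0.33 (SE 0.27, edgeR adjusted p = 0.722) in KI mice. The mean of both was -0.02 (95% interval -0.40 to 0.36).

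Ch25h and Cyp7b1, the hydroxylases that make the GPR183 ligand, had 0 counts in all 12 libraries. Of the 4 enzymes, Hsd3b7, which inactivates the ligand, and Cyp27a1 were tested. Hsd3b7 was at 5.08 CPM or less and Cyp27a1 at 14.5 CPM or less in every library. In any comparison, 0 of them were called or had an unadjusted edgeR p below 0.05, a p that 5.74% to 12.9% of all genes had.

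Cnr2 (chr4:135622696-135647518, plus strand; no other annotated gene overlaps it) had the largest fold change between cell types among the 5 members found in every library. It was at 50.01, 50.2 and 84.5 CPM in control B2 and at 51.1, 68.2 and 59.6 in KI B2. In MemB it was at 26.2, 29.0 and 13.5 CPM in control mice and at 16.8, 19.8 and 12.1 in KI mice. Every MemB library lay below every B2 library, with deposited counts of 371 to 988 in MemB and 1488 to 2788 in B2.

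Over both genotypes, Cnr2 was 3.14-fold lower in MemB than in B2, a log2 fold change of -1.65 (SE 0.35, 95% interval -2.36 to -0.95, edgeR adjusted p = 0.00702). Within control mice the log2 fold change was -1.43 (SE 0.49, edgeR adjusted p = 0.301, DESeq2 adjusted p = 0.0259), and within KI mice it was -1.88 (SE 0.49, edgeR adjusted p = 0.0919, DESeq2 adjusted p = 0.00103). In bulk samples, fewer cells with the transcript and less transcript per cell cannot be told apart. The call held with each of the 12 libraries left out in turn, with log2 fold changes of -1.756 to -1.503. It was lost without the 4 libraries numbered 3 (log2 fold change -1.27, edgeR adjusted p = 0.213), and the 4 MemB libraries then still lay below the 4 B2 libraries.

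The KI allele did not shift Cnr2 beyond the spread in either cell type. Its log2 fold change was -0.50 (SE 0.48, 95% interval -1.47 to 0.48) in MemB and -0.05 (SE 0.48, 95% interval -1.02 to 0.92) in B2, with edgeR adjusted p of 0.778 and 0.999.

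The 250 bases before the 2 annotated starts of Cnr2 are shown because it was the member called, with the same motifs in capitals (GRCm39, plus strand, chr4:135622446-135622695 for the upstream start and chr4:135638737-135638986 for the downstream start).
Cnr2 upstream start: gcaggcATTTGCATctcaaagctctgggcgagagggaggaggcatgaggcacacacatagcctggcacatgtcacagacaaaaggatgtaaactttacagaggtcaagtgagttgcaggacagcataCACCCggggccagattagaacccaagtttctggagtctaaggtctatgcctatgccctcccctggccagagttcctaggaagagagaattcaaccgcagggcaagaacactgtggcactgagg
Cnr2 downstream start: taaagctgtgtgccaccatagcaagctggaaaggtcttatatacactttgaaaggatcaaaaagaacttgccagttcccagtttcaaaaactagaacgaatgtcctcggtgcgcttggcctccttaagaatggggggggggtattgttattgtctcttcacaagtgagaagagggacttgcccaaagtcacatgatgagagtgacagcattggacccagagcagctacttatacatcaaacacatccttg
The window of the upstream start holds 1 octamer, which 1.52% of all protein-coding promoters of this length do, and 1 KLF core. The window of the downstream start holds 0 of the 3 motifs. The counts are summed per gene and do not tell which start was used.

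Among 7337 genes with a mean of at least 10 CPM, the 3 whose log2 CPM followed Cnr2 most closely over the 12 libraries were Ighd (Pearson r = 0.92), Nedd9 (r = 0.91) and Il12a (r = 0.89). Ighd encodes the IgD heavy chain, on which the cells were sorted, Nedd9 an adhesion scaffold protein and Il12a the p35 subunit of interleukin-12. Il12a was at 12.2 to 32.8 CPM in B2 and at 0.300 to 4.16 in MemB. Nedd9 was at 136 to 166 CPM in B2 and at 64.8 to 127 in MemB. Once group means were taken out, r with Cnr2 was -0.01 for Ighd, 0.71 for Nedd9 and 0.48 for Il12a, so the likeness to Ighd lay between groups. The 12 libraries differ in sort and in depth, and these correlations are descriptions.

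**Figure D3:**
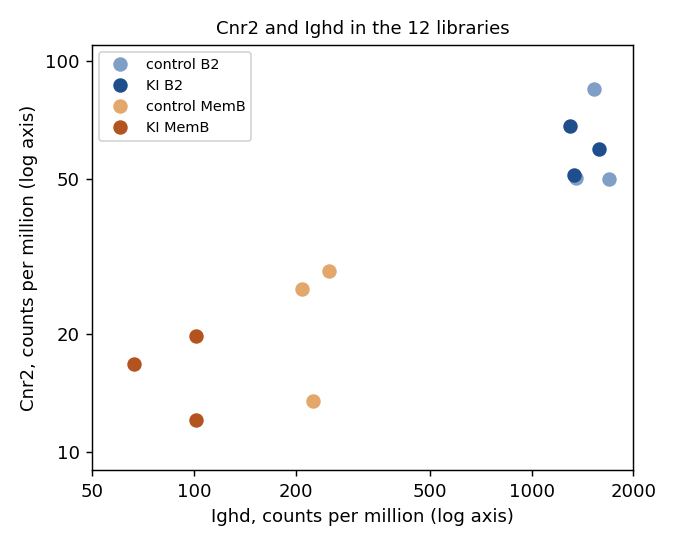
Cnr2 against Ighd in CPM (both log axes) in the 12 libraries, coloured by group. B2 libraries lie at 1297 to 1694 CPM of Ighd and at least 50.01 of Cnr2, and MemB libraries at 66.4 to 251 of Ighd and at most 29.0 of Cnr2.

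Of 8 enzymes that make or break down endocannabinoids, 6 were tested and 0 were called in any comparison by edgeR or DESeq2. At most 1 in each had an unadjusted edgeR p below 0.05, against 5.74% to 12.9% of all genes. In KI against control MemB this list had a median log2 fold change of -0.86, beside -0.03 over all genes, and 1 of the 6 was positive. Faah, which hydrolyses anandamide, was at 80.4, 30.6 and 22.3 CPM in control MemB and at 12.1, 23.4 and 13.1 in KI MemB (log2 fold change -1.46, SE 0.63, edgeR adjusted p = 0.374). Abhd6, a monoacylglycerol hydrolase, had a log2 fold change of -1.32 (SE 0.68) in MemB against B2 over both genotypes, with an edgeR adjusted p of 0.411. The brain-type receptor Cnr1 had 0 counts in all libraries.

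Ptger4 (chr15:5236142-5273673, minus strand) had the largest fold change by genotype in MemB among the 5 members found in every library. It was at 14.7, 22.5 and 25.1 CPM in control B2 and at 18.9, 16.1 and 9.96 in KI B2. In MemB it was at 37.5, 20.6 and 17.6 CPM in control mice and at 1.67, 6.04 and 10.8 in KI mice. The 3 KI MemB libraries lay below the 3 control MemB libraries and below every control B2 library, and of the other 9 libraries KI B2 replicate 3 alone lay within their range.

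The log2 fold change of Ptger4 in KI against control MemB was -2.03 (SE 0.77, 95% interval -3.60 to -0.46). It did not pass edgeR's test (adjusted p = 0.342) and passed DESeq2's (adjusted p = 0.0421). It was -1.58 without KI MemB replicate 1, -2.71 without KI MemB replicate 3 and -2.90 without replicate 3 of all 4 groups, and edgeR's adjusted p stayed at 0.338 or more with 1 library left out. In B2 the same contrast gave -0.47 (SE 0.74), and the difference between the effects, -1.57 (SE 1.05, edgeR adjusted p = 0.754), did not pass. Between MemB and B2 over both genotypes the log2 fold change was -0.50 (SE 0.53, edgeR adjusted p = 0.765). It was 0.28 (SE 0.74, edgeR adjusted p = 0.948) within control mice and -1.28 (SE 0.75, edgeR adjusted p = 0.573) within KI mice. Its exons overlap those of Ttc33 and Gm15937 on the other strand, its deposited counts were not whole in 11 of the 12 libraries, and Gm15937 ranged from 0 to 29.6 CPM in control MemB, so reads may be shared between these genes.

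Beside this, the levels of markers of other cells differed between the MemB groups. The 10 T and NK cell markers summed to 119, 151 and 91.9 CPM in control MemB and to 15.9, 27.7 and 51.9 in KI MemB, and 1 of the 8 tested, Nkg7, was called lower in KI MemB. In B2 the same sum was 19.6 to 55.4 CPM, while Ptger4 there was at 9.96 to 25.1. The mast cell markers found summed to 45.0, 1.53 and 241 CPM in control MemB and to at most 1.77 in KI MemB, and 1 of the 3 tested, Cma1, was called lower (log2 fold change -6.40, SE 1.41, edgeR adjusted p = 0.0374). KI B2 replicate 3, the B2 library with the least Ptger4, had a mast cell sum of 74.9 CPM against at most 1.75 in the other B2 libraries. The 6 B-1 markers summed lower in KI than in control MemB with no overlap, and Cd5 of this list was at 8.72 to 14.1 CPM in control and 0.130 to 1.961 in KI MemB (log2 fold change -3.85, SE 1.499, edgeR adjusted p = 0.349). Of the 6, 0 were called and 2 had a positive log2 fold change. Itgam was at 24.3 to 95.6 CPM in control and 44.6 to 99.0 in KI MemB, and Zbtb32 at 107 to 169 and 136 to 152. The 6 plasma cell markers summed to 302 to 495 CPM in control and 380 to 505 in KI MemB, which overlapped. Of these, 1 was called, Jchain, higher in KI MemB, at 72.1 to 196 CPM against 5.57 to 17.99 in control MemB (log2 fold change 3.796, SE 0.68, edgeR adjusted p = 0.00495), while Irf4 was at 202 to 241 CPM in KI and 267 to 385 in control MemB (log2 fold change -0.56, edgeR adjusted p = 0.366). The 9 macrophage markers summed to 23.8 CPM in control MemB replicate 2 and to at most 9.19 in every other library. Of these, Csf1r was at 13.8 CPM and Lyz2 at 8.71 in that library, against 2.698 or less in every other library. Adgre1 was at 1.29 CPM there, below its 9.16 in control B2 replicate 2 and 5.97 in KI B2 replicate 2. Cd14, Fcgr1 and C1qa were at 0 throughout. In KI against control MemB, Lyz2 had a log2 fold change of -5.10 (SE 2.26, edgeR adjusted p = 0.393) and Adgre1 one of -0.67 (SE 1.66, edgeR adjusted p = 0.938). The part of these cells in the Ptger4 and S1pr1 values was not tested.

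Egr3 (r = 0.94), Pou2f1 (r = 0.93) and Lmo7 (r = 0.92) followed Ptger4 most closely over the 12 libraries, and with group means taken out r was 0.86, 0.82 and 0.85. Egr3 encodes an early growth response transcription factor that antigen receptor signals induce. It was at 0.886 to 9.09 CPM in KI MemB and at 13.2 to 79.6 in control MemB. Lmo7 was at 3.17 to 11.9 CPM in KI MemB and at 33.1 to 78.8 in control MemB. In B2 it was at 64.8 to 118 CPM in control mice and at 25.4 to 55.8 in KI mice. These genes were picked by their r with Ptger4 over the same libraries, so their r and their gaps between groups are descriptions.

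Of 10 genes of prostaglandin E2 synthesis and removal, 4 were tested and 0 were called in any comparison by edgeR or DESeq2. At most 1 in each had an unadjusted edgeR p below 0.05, against 5.74% to 12.9% of all genes. In KI against control MemB this list had a median log2 fold change of -0.57, beside -0.03 over all genes, and 0 of the 4 were positive. The inducible cyclooxygenase Ptgs2 had 0 counts in all libraries. Abcc4, an exporter of prostaglandins, had a log2 fold change of -1.79 (SE 0.82, edgeR adjusted p = 0.410) in KI against control MemB. Of the other prostaglandin E2 receptors, Ptger3 had 0 counts, Ptger2 at most 3, and Ptger1 was at 0.337 to 32.1 CPM.

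**Figure D4:**
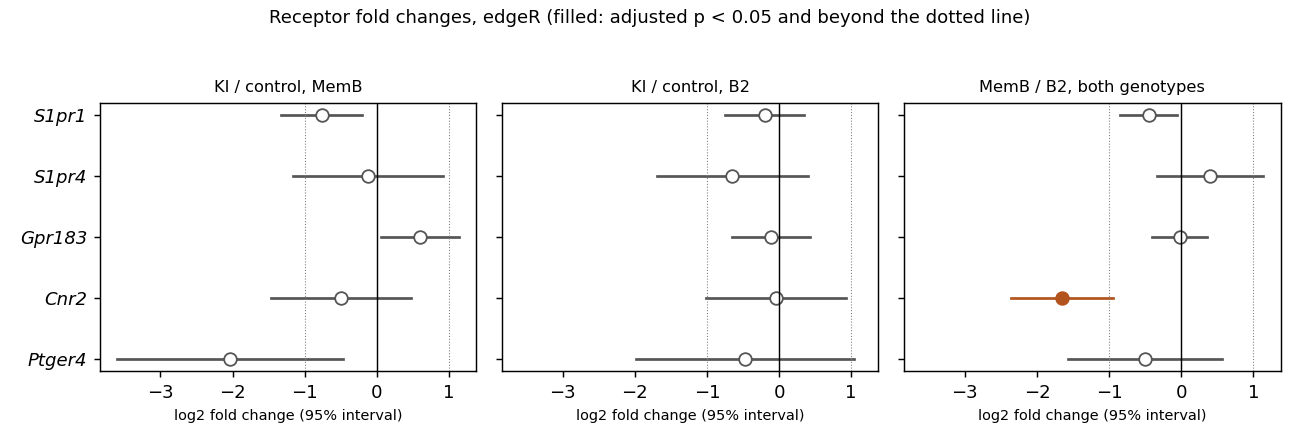
Log2 fold changes of 5 receptors with 95% intervals (edgeR) in 3 comparisons. Dotted lines mark log2 fold changes of -1 and 1, and the filled point is the 1 called, Cnr2 in MemB against B2 at -1.65. The intervals of Ptger4, S1pr1 and Gpr183 in KI against control MemB leave out 0, though none of these passed after adjustment over all genes.

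All 13 listed genes that control these receptors or carry their signals were tested. In KI against control MemB, 0 were called by edgeR, 2 had an unadjusted p below 0.05 (11.1% of all genes did) and DESeq2 called 1, Cd69 (3.49% of all genes). CD69 binds S1PR1 and brings it inside the cell. Cd69 was at 55.4, 83.2 and 91.3 CPM in control MemB and at 196, 180 and 147 in KI MemB, and the groups did not overlap (log2 fold change 1.18, SE 0.28, edgeR adjusted p = 0.0541, DESeq2 adjusted p = 0.0131). Gna13, a G protein subunit that carries S1PR2 signals, had a log2 fold change of 0.74 (SE 0.32, edgeR adjusted p = 0.370) there. The list's median log2 fold change was 0.14, beside -0.03 over all genes. In this comparison edgeR called 1 gene of the list with no filter on low counts, with a stricter filter, and without KI B2 replicate 3.

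In MemB against B2, Cd69 was the 1 gene of this list called, within control mice (log2 fold change -1.53, SE 0.28, edgeR adjusted p = 0.00627). No gene of the list was called there without control MemB replicate 1. Over both genotypes, 3 genes of the list had an adjusted p below 0.05 with log2 fold changes short of 1. These were Cd69 at -0.98 (SE 0.20, edgeR adjusted p = 0.00464), Foxo1 at -0.85 (SE 0.20, edgeR adjusted p = 0.0235) and Klf2 at 0.74 (SE 0.18, edgeR adjusted p = 0.0293). Over both genotypes, 1 gene of the list was called with upper quartile normalization and without replicate 3 of all 4 groups. The same count came from some of the fits with 1 library left out. Klf2 was at 111 to 184 CPM in the 6 B2 libraries and at 199 to 299 in the 6 MemB libraries, which did not overlap. S1pr1 had the opposite sign to Klf2 in this comparison, at -0.45 (SE 0.19, edgeR adjusted p = 0.294). Foxo1, a transcription factor upstream of Klf2 in lymphocytes, was at 98.2 to 284 CPM in B2 and 98.1 to 133 in MemB.

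**Figure D5:**
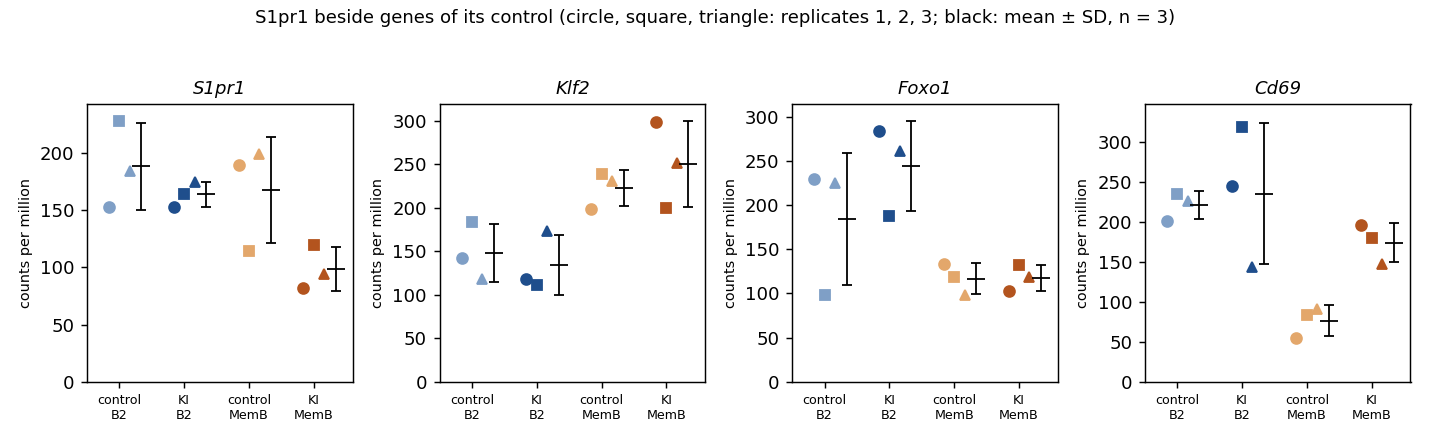
CPM of S1pr1, Klf2, Foxo1 and Cd69 in each library, by group, with the mean ± SD in black (n = 3). Klf2 is higher in all 6 MemB libraries than in all 6 B2 libraries, and Cd69 in control MemB, at 55.4 to 91.3 CPM, lies below every other group.

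Of 35 other receptors for lipids, 17 were tested. Gpr34 was the gene of the list that edgeR called, in KI against control MemB, in KI against control B2, and in MemB against B2 both over both genotypes and within control mice. At an unadjusted edgeR p below 0.05, MemB against B2 had 7 of the 17 over both genotypes (12.9% of all genes). It had 7 within control mice (10.6%) and 1 within KI mice (10.6%). KI against control gave 3 in MemB (11.1%) and 2 in B2 (5.74%), and the difference of these effects gave 1 (8.49%). DESeq2 called 3 of the list in MemB against B2 over both genotypes (4.09% of all genes), adding Ffar2, a short-chain fatty acid receptor (log2 fold change 3.89, DESeq2 adjusted p = 0.00134), and Lpar6, a lysophosphatidic acid receptor (-1.94, DESeq2 adjusted p = 0.0106). Within control mice it called 4, Ffar2 and Gpr55 among them (2.9% of all genes). Gpr174, another lysophosphatidylserine receptor, was at 14.7, 19.5 and 13.1 CPM in control MemB and at 21.9, 45.7 and 54.8 in KI MemB, with no overlap (log2 fold change 1.37, SE 0.54, edgeR adjusted p = 0.351). Gpr55, a receptor for lysophosphatidylinositol, was at 40.4, 12.8 and 77.8 CPM in control MemB and at 16.8, 4.69 and 4.202 in KI MemB (log2 fold change -2.35, SE 0.85, edgeR adjusted p = 0.325). S1pr5, the S1P receptor of NK cells, had at most 1 count in any library.

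For the other members, the genes most alike over the 12 libraries were Eif2b1 (r = 0.90), Gramd4 (0.89) and Dgkd (0.89) for S1pr1, Snrnp40 (0.86), Gng2 (0.86) and Fech (0.84) for S1pr4, and Bub3 (0.91), Snx20 (0.83) and Ociad1 (0.83) for Gpr183. For S1pr2 they were Rps18 (0.84), Ddx18 (0.83) and Slc25a4 (0.81), on counts of 1 or 0 in 6 of the 12 libraries. Eif2b1, a subunit of a translation initiation factor, was at 2.49 to 6.71 CPM in KI MemB and at 10.1 to 23.8 in the other 9 libraries. Dgkd, a diacylglycerol kinase, was at 160 to 199 CPM in KI MemB and at 227 to 308 in B2. In control MemB Dgkd was at 197 to 267 CPM, which overlapped KI MemB. Bub3, a spindle checkpoint protein, was at 70.6 to 135 CPM in KI MemB and at 43.9 to 61.3 in control MemB. Control B2 at 65.4 to 77.3 CPM and KI B2 at 32.0 to 86.3 both overlapped KI MemB for Bub3.

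Among the members themselves, the closest pair over the 12 libraries was S1pr1 and Ptger4 (r = 0.74), which fell to 0.32 once group means were taken out. S1pr4 and Cnr2 went opposite ways within groups (r = -0.65, against -0.38 over all 12 libraries). These correlations are descriptions over 12 libraries, which fall into 4 groups.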

How the data were processed

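The authors deposited 1 table of RSEM expected counts per gene for the 12 libraries. Per the labels and the study's methods, 50 bp paired-end reads from amplified total RNA (Ovation RNA-seq System V2) of cells sorted to about 95% purity were trimmed with cutadapt 4.5 and aligned to mm39 with STAR 2.7.11a, then quantified with RSEM 1.3.3. The annotation release and strand setting are not given in the sources used here. Values above 0 were fractional in 32.2% of cases, and all were rounded for the tests. edgeR 4.0.16 (R 4.3.3) was run with TMM, filterByExpr (minimum count 10), 4 group means over 12 libraries, a robust quasi-likelihood fit and Benjamini-Hochberg adjustment over 15148 genes, and DESeq2 1.42.0 was the alternative. CPM used TMM library sizes, and intervals are 95%. Gene positions and exon lengths came from GENCODE M39. Named genes were the 7 members, from each list the genes called in a comparison or otherwise the 3 with the smallest p, of which the text gives those nearest the members' ligands, and for each member the 3 genes with the highest Pearson r among genes of at least 10 CPM. Egress and signalling genes given by level only (S1pr5, Cnr1, Ptger1, Ptger2, Ptger3, Ptgs2, Ch25h, Cyp7b1) were added after their values were seen. Cell markers given by level only (Ms4a1, Itgam, Csf1r, Cd14, Fcgr1, C1qa) were also named outside this rule. The members and lists were chosen with earlier results of these data known. Labels call the replicates biological, and whether a B2 and a MemB library came from 1 mouse is not stated. The fits were tested on simulated data. Some listed marker genes are not reported here.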

Additional observations from a re-analysis of the deposited data

How the results depend on the processing

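Of the log2 fold changes of members under all alternatives, 766 kept their direction and side of the threshold, 24 reversed sign, 3 passed and 1 no longer passed. DESeq2 called 1 member in KI against control MemB (Ptger4), 1 in MemB against B2 within control mice and 1 within KI mice (Cnr2), where edgeR called 0. Leaving out replicate 3 of all 4 groups left 0 members called in MemB against B2 over both genotypes. With the longest transcript as gene length, Ptger4 was at 4.45 CPM per kb in place of 2.52, and its mean in control MemB then lay above that of Cnr2.

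The reversals were of values that no test called. In KI against control B2, Cnr2 was at 0.022 with upper quartile normalization and 0.27 without replicate 3 of all 4 groups. Gpr183 in MemB against B2 over both genotypes was at 0.021 without replicate 3 of all groups. Within control mice, MemB against B2 gave S1pr2 at 0.43 with the mouse as replicate block, and S1pr4 at -0.14 with the replicate block, -0.066 with the mouse block and -0.59 without replicate 3 of all groups. Leaving out 1 library at a time gave, for KI against control MemB, -1.92 to 2.74 for S1pr2 and -0.73 to 0.41 for S1pr4, and for KI against control B2, -7.34 to 0.21 for S1pr2, -0.31 to 0.091 for Gpr183 and -0.18 to 0.26 for Cnr2. The difference of KI effects ran from -0.091 to 1.11 for S1pr4. MemB against B2 ran from -0.13 to 0.077 for Gpr183 over both genotypes and, within control mice, from -0.11 to 0.49 for Ptger4, -3.74 to 5.02 for S1pr2, -0.39 to 0.53 for S1pr4 and -0.31 to 0.044 for S1pr1.

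Over all genes tested, deviations from group means of same-numbered libraries correlated at -0.0139 to 0.0262 between genotypes and -4.66e-06 to 0.0344 between cell types. For differently numbered libraries the values were -0.0297 to 0.0218 and -0.0229 to 0.0167. Xist set replicate 3 apart in every group, and these correlations do not tell whether libraries share a mouse. With the replicate block, 128 genes were called in place of 153 in MemB against B2 over both genotypes and 37 in place of 43 in KI against control MemB, and no call of a member changed. Over all genes, edgeR called 43, 1, 10, 153, 40 and 55 genes in KI against control MemB, KI against control B2, the difference of effects, and MemB against B2 over both genotypes, in control and in KI mice, and DESeq2 called 479, 42, 209, 583, 398 and 396. In the same order, no filter on low counts gave 90, 8, 44, 236, 96 and 105, a fit that was not robust 22, 1, 4, 116, 24 and 37, and leaving out replicate 3 of all groups 24, 2, 10, 88, 18 and 30. Leaving out 1 library moved some of edgeR's counts by over 1.5 times. KI against control MemB gave 15 without KI MemB replicate 1, 24 without KI MemB replicate 3, and 26 and 19 without control MemB replicates 1 and 2. KI against control B2 gave 2 without KI B2 replicate 3. The difference of effects gave 5 and 6 without control B2 replicates 2 and 3 and 6 without KI B2 replicate 3. MemB against B2 in control mice gave 19, 25 and 21 without B2 replicates 1, 2 and 3, and 23 and 24 without MemB replicates 1 and 3. In KI mice it gave 31, 27 and 35 without B2 replicates 1, 2 and 3, and 34 without MemB replicate 1. The shares of all genes called move with these counts. Fitting only the groups compared gave 15 in KI against control MemB. The difference of effects gave 5 with upper quartile normalization, 3 without immunoglobulin and ribosomal RNA genes, 4 with a stricter filter and 6 with the replicate block. The cause of these differences was not tested. Low counts limit S1pr2 and S1pr3, and the fitted S1pr2 values above depend on the prior count and are no bounds. Ptger4 had 48.6 counts in its lowest library.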
